A study of Saccharomyces cerevisiae with 32 samples.

Results

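The effect of high-copy DBP1 (hcDBP1) in a heat-sensitive ded1 mutant at 37 °C was set beside its effect in a cold-sensitive ded1 mutant at 15 °C. For each gene the change from the ded1 mutant to the same mutant with hcDBP1 was taken at each temperature, and the value at 15 °C was then subtracted from the value at 37 °C. The comparison rests on 16 of the 32 libraries of the series, from 4 budding yeast strains with 2 footprint and 2 mRNA libraries each. A further 8 libraries of the 2 controls stand behind it, because every change was deposited against the control of its own experiment. The cold experiment held the control DED1-CS WT (NSY52), ded1-cs (NSY54) and ded1-cs_hcDBP1 (NSY56) at 15 °C. The heat experiment held the control DED1-TS WT (NSY67), ded1-ts (NSY71) and ded1-ts_hcDBP1 (NSY73) at 37 °C. Per the labels, all strains grew in SC medium with plasmid selection where needed, were shifted in temperature and received cycloheximide before harvest, and footprints were cut with RNase I. Each strain stands for 1 genotype at 1 temperature, so the ded1 allele, the temperature and the experiment cannot be told apart.

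Ded1 and Dbp1 are related DEAD-box RNA helicases, enzymes that unwind RNA with energy from ATP. Ded1 helps the small ribosomal subunit load on an mRNA and scan its leader to the start codon, and long or structured leaders are known to need it most. Dbp1 is its paralog, and extra copies of DBP1 are known to support growth when Ded1 is impaired. Ribosome profiling sequences the mRNA fragments covered by ribosomes, and a footprint level divided by the mRNA level gives the translational efficiency (TE) of a gene.

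The authors deposited 1 log2 level and 1 log2 change per gene, strain and assay, in which both libraries are pooled. No spread between libraries can therefore be given, and no difference here was tested against one. A log2 value of 1 or more in size, which is 2-fold, marks a gene as higher or lower. Genes entered where the level averaged over the mutant, the hcDBP1 strain and the control reached 50 in footprints and in mRNA. Sequencing depth is unknown, and column sums of the deposited levels ran from 15033070 to 48359134.

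DBP1 itself (YPL119C) was higher in both hcDBP1 strains. Its deposited log2 mRNA level was 8.5 in DED1-CS WT, 8.5 in ded1-cs and 14.3 in ded1-cs_hcDBP1, and 8.5, 9.8 and 15.5 in DED1-TS WT, ded1-ts and ded1-ts_hcDBP1. The hcDBP1 strain was far above the other strains in each experiment, and ded1-ts stood above its control already without hcDBP1. By difference of the deposited changes, hcDBP1 went with DBP1 mRNA of 5.90 at 15 °C and 5.56 at 37 °C. DBP1 footprints stood at 4.87 and 3.29, so the TE of DBP1 was −1.03 at 15 °C and −2.27 at 37 °C. DBP1 footprints thus followed its mRNA less closely in the heat, with a difference of −1.58 in footprints, −0.33 in mRNA and −1.25 in TE between the temperatures.

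DED1 (YOR204W) differed by less than 2-fold with hcDBP1. Its footprints stood at −0.55 at 15 °C and 0.22 at 37 °C, its mRNA at −0.39 and −0.16, and its TE at −0.16 and 0.39. The deposited log2 footprint levels of DED1 were 15.83, 18.5 and 17.9 in DED1-CS WT, ded1-cs and ded1-cs_hcDBP1, against 16.936, 15.95 and 16.275 in DED1-TS WT, ded1-ts and ded1-ts_hcDBP1. Both cold-sensitive strains were above their control and both heat-sensitive strains below theirs, with or without hcDBP1. Among the annotated neighbours of DBP1, the mitochondrial ribosomal protein gene MRP51 was higher in footprints at both temperatures, by 2.40 at 15 °C and 1.70 at 37 °C, with mRNA at 0.72 and 1.09. The small reading frame YPL119C-A, which lay below the level minimum at 37 °C, had mRNA at 5.40 in both hcDBP1 strains, close to that of DBP1. The other neighbours did not go with DBP1: mRNA of VPS30, an autophagy and vacuolar sorting gene, stood at −0.27 and −0.07, and mRNA of the isoprenoid enzyme gene IDI1 at 0.16 and 0.11.

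The genes whose TE was higher with hcDBP1 at both temperatures were few. By difference of the deposited changes they were RPB7, a subunit of RNA polymerase II, PAP1, the poly(A) polymerase, RHO2, a small GTPase of the cell wall integrity pathway, ENB1, a siderophore transporter, and HOS3, a histone deacetylase. These 5 genes were 4.46% of the 112 genes higher at 15 °C and 7.46% of the 67 genes higher at 37 °C, over 5086 genes analysed in both experiments. The background for the 4.46% is the 1.28% of all genes higher in TE at 37 °C. For the 7.46% it is the 2.24% of all genes higher at 15 °C. In the authors' deposited table, TE of RPB7 against the control was −3.86 in ded1-cs and −2.29 in ded1-cs_hcDBP1, and −2.14 in ded1-ts and −0.38 in ded1-ts_hcDBP1. All 4 mutant strains stood below their control, least so ded1-ts_hcDBP1, and the hcDBP1 effect was 1.57 at 15 °C and 1.76 at 37 °C. The underlying log2 footprint levels of RPB7 were 9.97, 6.1 and 7.6 in DED1-CS WT, ded1-cs and ded1-cs_hcDBP1, and 10.798, 8.63 and 10.381 in the heat series. Its mRNA level lay between 9.7 and 9.9 in the cold and between 10.5 and 10.6 in the heat, so the footprints alone differed by 2-fold or more.

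RHO2 also stood nearer to its control with hcDBP1 in both experiments. Its TE in the authors' deposited table was −3.28 in ded1-cs, −2.26 in ded1-cs_hcDBP1, −2.63 in ded1-ts and −0.85 in ded1-ts_hcDBP1, which gives effects of 1.02 and 1.78. For RHO2 and all other genes named by a large effect, the mutant libraries enter both the effect and the mutant's distance from its control. A move towards the control is therefore not separate evidence for such genes. PAP1 had effects of 1.03 at 15 °C and 1.11 at 37 °C, ENB1 of 1.00 and 1.04, and HOS3 of 1.13 and 1.06. mRNA of these 4 genes differed little with hcDBP1, between −0.19 and 0.46 at either temperature. By locus tag HOS3 lies near DBP1, just beyond the neighbour IDI1. In footprints, 17 genes were higher at both temperatures. These were 10.8% of the 157 higher at 15 °C, against 2.32% of all genes higher at 37 °C. As a part of the 120 higher at 37 °C they made 14.2%, against 3.12% of all genes higher at 15 °C. They include PMA1, the plasma membrane proton pump, FET3, the iron oxidase of high-affinity uptake, the mitotic cyclin gene CLB2, RPO31, of RNA polymerase III, HEL2, a ubiquitin ligase acting on stalled ribosomes, and DBP1 with its neighbour MRP51. CLB2 and HEL2 are named here after their values were seen. PMA1 footprints stood at 1.04 and 1.18, made up of a TE effect of 0.93 and mRNA of 0.10 at 15 °C, and of 0.68 and 0.50 at 37 °C. Of other named genes, which did not reach 2-fold at both, PAB1, the poly(A)-binding protein, had TE effects of 0.37 and 0.90, the Golgi traffic gene SFT2 of 1.01 and 0.52, and the G1 cyclin CLN3 of 0.45 and 0.33.

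**Figure D1:**
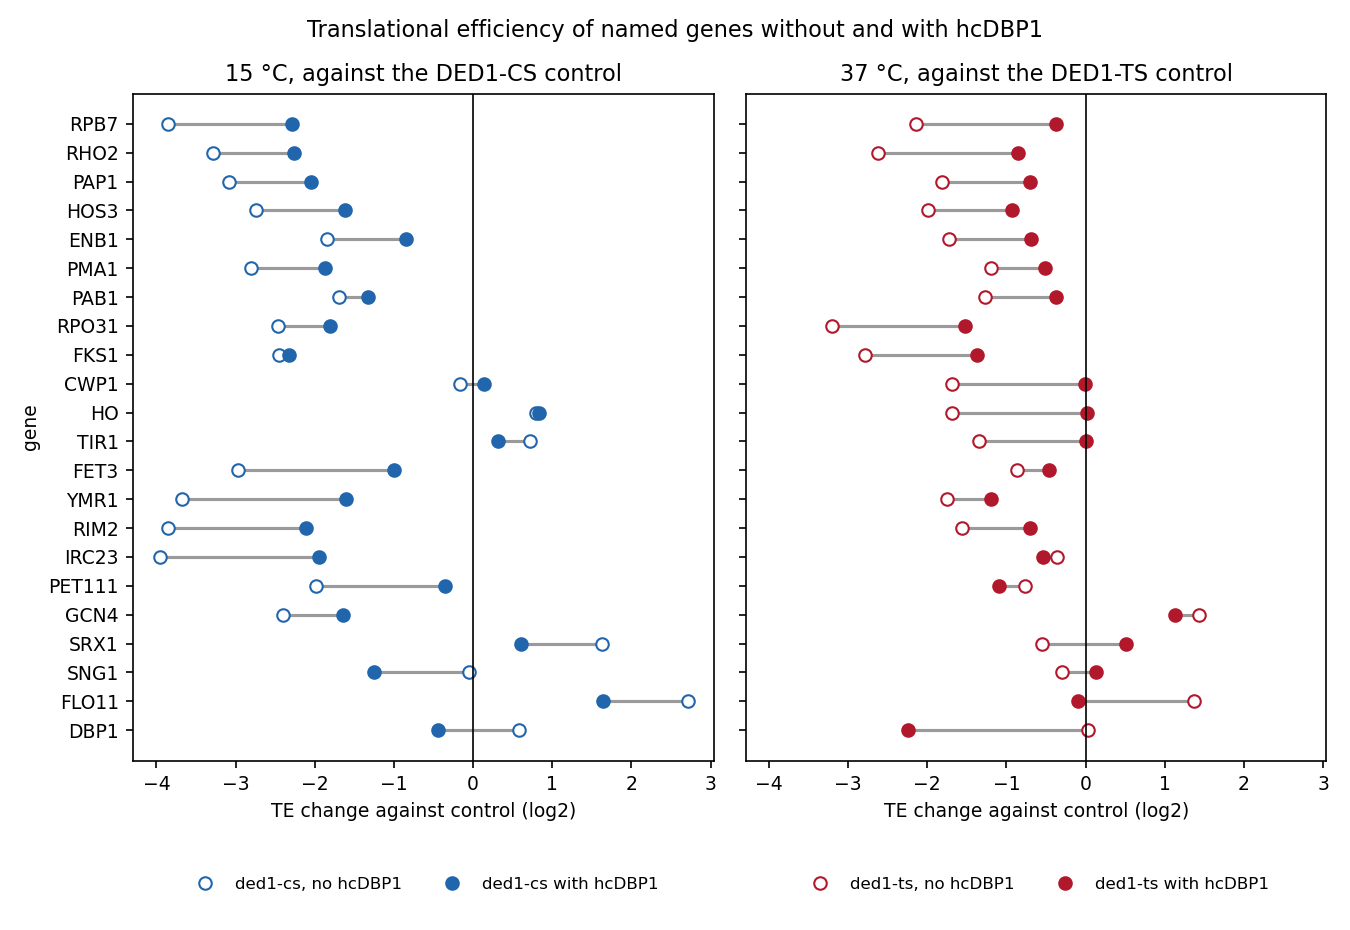
Deposited TE change against control (log2) of 22 named genes, with open circles for the ded1 mutant and filled circles for the same mutant with hcDBP1, at 15 °C on the left and at 37 °C on the right. RPB7 moves from −3.86 to −2.29 on the left and from −2.14 to −0.38 on the right, while CWP1, HO and TIR1 move to near 0 on the right only, and SRX1 moves in opposite directions.

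Genes lower in TE with hcDBP1 at both temperatures were DBP1 itself and FLO11, a cell surface flocculin, of 13 lower genes in each experiment among those analysed in both. The background was 0.255% of all genes lower at 15 °C and 0.383% at 37 °C. TE of FLO11 in the authors' deposited table was 2.71 in ded1-cs and 1.64 in ded1-cs_hcDBP1, and 1.37 in ded1-ts and −0.09 in ded1-ts_hcDBP1. In each experiment the strain without hcDBP1 was the higher, by 1.07 at 15 °C and 1.46 at 37 °C. Over all 5086 genes the effects at the 2 temperatures had a Pearson's r of 0.19 and a Spearman's rho of 0.13 in TE, 0.25 and 0.22 in footprints, and 0.27 and 0.22 in mRNA. The experiments share no library, the correlation is across genes, and genes are not independent replicates.

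**Figure D2:**
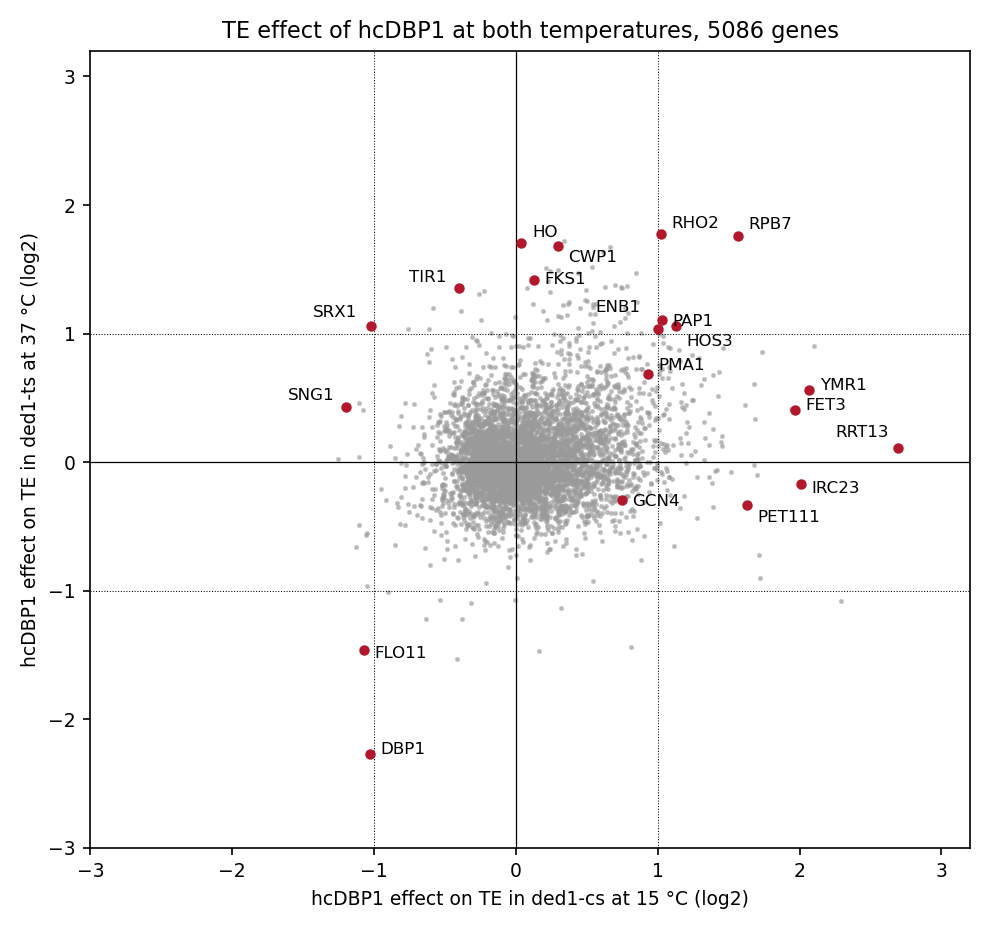
TE effect of hcDBP1 (log2) for 5086 genes, in ded1-cs at 15 °C on the horizontal axis and in ded1-ts at 37 °C on the vertical axis, with dotted lines at 2-fold and named genes in red. RPB7, RHO2, PAP1, ENB1 and HOS3 lie beyond 2-fold at both, FET3, YMR1, RRT13, IRC23 and PET111 beyond it at 15 °C only, and HO, CWP1, TIR1 and FKS1 beyond it at 37 °C only.

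Because the experiments share no library, genes that stood low in one ded1 mutant could be read in the hcDBP1 effect of the other. The 333 genes with TE at least 2-fold lower in ded1-ts, where 6.4% of all genes were lower, had a median hcDBP1 effect of 0.49 on TE in ded1-cs at 15 °C, against 0.05 for all 5088 genes. Of them, 296 (88.9%) were above 0, against 55.6% of all genes, and 36 (10.8%) were 2-fold higher, against 2.18% of all genes and with 0 lower. Their footprints had a median of 0.57 and their mRNA a median of 0.08, so the effect was one of footprints. The 122 genes higher in TE in ded1-ts, where 2.98% of all genes were higher, had a median of −0.08, and 50 of them (41.0%) were above 0. The 7 genes among them at a log2 of 2 or higher in ded1-ts went the other way, with a median of 0.86.

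The reverse reading had the same direction and a smaller size. The 1115 genes low in TE in ded1-cs, where 21.9% of all genes were lower, had a median hcDBP1 effect of 0.18 in ded1-ts at 37 °C, against 0.01 for all 5085 genes, with 788 (70.7%) above 0 against 52.0% of all. Of them, 51 (4.57%) were 2-fold higher and 1 lower, against 1.30% of all genes higher. Their mRNA median was −0.03. The 835 genes high in ded1-cs, where 16.5% of all genes were higher, had a median of −0.06. Of them, 0 were higher and 8 lower, against 1.30% and 0.256% of all genes. The effect in the heat was graded by the size of the change in the cold: the 298 genes with TE at −2 or lower in ded1-cs had a median of 0.42, the 817 genes between −2 and −1 one of 0.12, and the 1256 genes between −1 and 0 one of 0.00. The effect in the cold was not graded in this way past 2-fold, with 0.46 for the 54 genes lowest in ded1-ts, 0.50 for the next 279 and 0.17 for the 1919 genes between −1 and 0. Genes named above that were low in both mutants include RPB7, RHO2, PAP1, HOS3, ENB1, RPO31, PMA1 and PAB1.

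**Figure D3:**
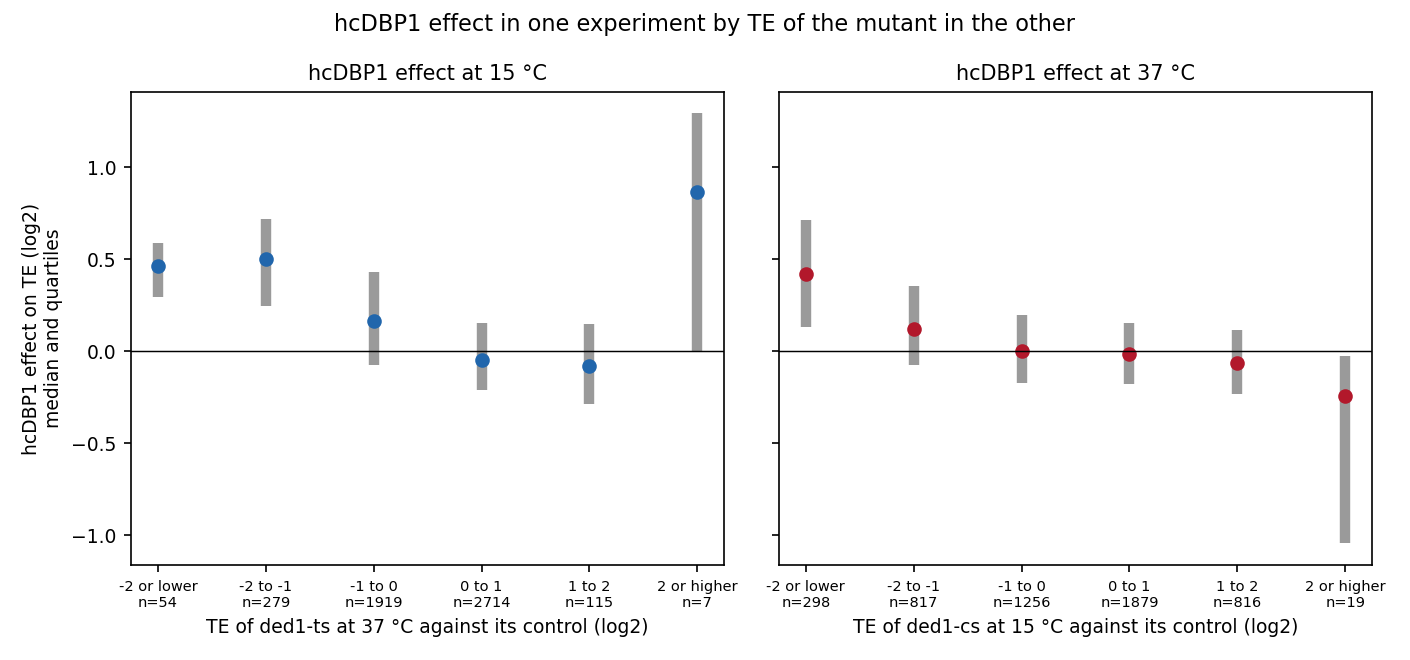
Median (dot) and quartiles (bar) of the hcDBP1 effect on TE (log2) by the TE change of the ded1 mutant in the other experiment, with n genes under each class. Genes at −2 or lower in the mutant have medians of 0.46 at 15 °C and 0.42 at 37 °C. Those between 0 and 2 lie near or below 0. The outermost right classes, with medians of 0.86 at 15 °C and −0.24 at 37 °C, hold only 7 and 19 genes.

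Several genes were higher in TE with hcDBP1 in the cold and below 2-fold in the heat, among them YMR1, IMP1, RIM2 and FET3. YMR1, a phosphoinositide phosphatase, had TE in the authors' deposited table of −3.67 in ded1-cs, −1.60 in ded1-cs_hcDBP1, −1.75 in ded1-ts and −1.19 in ded1-ts_hcDBP1, an effect of 2.07 at 15 °C and 0.56 at 37 °C. All 4 strains were below control, and the largest step lay between the cold-sensitive strains. IMP1, an inner membrane peptidase of mitochondria, had TE effects of 2.10 and 0.91, and RIM2, a mitochondrial nucleotide carrier, of 1.74 and 0.85. FET3 had a TE effect of 1.97 at 15 °C with mRNA at 0.00, but 0.40 at 37 °C with mRNA at 1.47. Its log2 mRNA levels were 11.6, 11.7 and 11.6 across DED1-CS WT, ded1-cs and ded1-cs_hcDBP1, and 11.7, 9 and 10.6 across the heat series. FET3 footprints thus stood about equally higher at both, by 1.97 and 1.87, through TE in the cold and mostly through mRNA in the heat.

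Of all 5086 genes, 61 (1.2%) stood 2-fold higher in the TE difference and 114 (2.24%) lower. Scaling to equal column totals lowers all TE differences by the same amount, a shift of −0.33, which keeps the order of genes and gives 19 higher and 429 lower. Among genes without an annotated overlap or copy, the 10 lowest were YER138W-A at −2.62, RRT13 at −2.58, MCO6 at −2.43, IRC23 at −2.18, PET111 at −1.96, YTP1 at −1.80, PET127 at −1.77, FAR10 at −1.74, SSY1 at −1.71 and SLK19 at −1.70. PET111 activates translation of a cytochrome oxidase mRNA in mitochondria, PET127 acts in mitochondrial RNA processing, SSY1 senses external amino acids, FAR10 acts in pheromone arrest and SLK19 at the kinetochore. IRC23 had log2 footprint levels of 7.82, 4.1 and 5.8 in DED1-CS WT, ded1-cs and ded1-cs_hcDBP1 but 9.853, 9.97 and 9.822 in the heat series. Its footprints were thus far below control in ded1-cs, partly so in ded1-cs_hcDBP1, and about level in the heat. SLK19 was alike, at 9.46, 6.3 and 8.1 in the cold and 10.357, 10.47 and 10.787 in the heat.

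Several genes at this end had low levels. The mean footprint level in the cold experiment was between 54.9 and 59.3 for YER138W-A, RRT13, MCO6 and PET111, just over the minimum of 50. It was 75.9 for YTP1, whose mean mRNA level was 55.8, 127.1 for IRC23 and 172.2 for SSY1. In ded1-cs alone the footprint level of IRC23 lay below 50. The level was 226.2 for FAR10, 419 for PET127 and 428.6 for SLK19. Of genes with a footprint level of 50 to 200, 13.8% passed 2-fold in the TE difference, against 2.83% from 200 to 1000, 1.78% from 1000 to 5000 and 2.93% above that. A list of 16 mitochondrial translation activators, PET111 among them, was chosen after values were seen and supports nothing beyond its own values. It had a TE median of 0.31 at 15 °C, with 13 above 0 and 2 higher against 2.24% of all genes, and of −0.21 at 37 °C, with 4 above 0. Over all genes the medians were 0.05 and 0.01. Relative to all genes the median at 15 °C was 0.26 and went as low as 0.10 under the alternatives. CBS1 and AEP2, which activate the cytochrome b and ATP synthase mRNAs and were named after their values were seen, had TE effects of 0.70 and 0.80 in the cold and −0.50 and −0.18 in the heat.

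The 10 highest TE differences of genes without an annotated overlap or copy were SRX1 at 2.08, TIR2 at 1.80, MMP1 at 1.78, TIR1 at 1.75, HO at 1.67, SPO24 at 1.65, SNG1 at 1.63, PIR3 at 1.57, and SAM1 and ATG41 at 1.56 each. Levels were low for some genes at this end too. Mean footprint levels at 15 °C and 37 °C were 98.2 and 99.9 for TIR2 and 220.7 and 132.8 for MMP1. SRX1 had a mean mRNA level of 52.8 at 15 °C, just over the minimum. For SNG1 and ATG41 most of the difference was a lower TE in the cold, with effects of −1.20 and −1.10 at 15 °C and 0.43 and 0.46 at 37 °C, and SRX1 was split evenly. TIR1, TIR2 and PIR3 are cell wall mannoproteins, MMP1 imports S-methylmethionine, and SAM1 makes S-adenosylmethionine and has a close paralog with which reads may be shared. HO, the endonuclease of mating type switching, had log2 footprint levels of 11.139, 5.67 and 9.365 in DED1-TS WT, ded1-ts and ded1-ts_hcDBP1, with mRNA levels of 11.1, 7.4 and 9.4. In the cold the footprints of HO were 10.49, 10.5 and 10.6. HO was thus low in ded1-ts in both assays and intermediate with hcDBP1, while the 3 cold strains were alike in footprints.

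CWP1, a mannoprotein linked to cell wall glucan, had the highest difference in both footprints, 4.02, and mRNA, 2.63. Its log2 footprint levels were 15.057, 9.05 and 13.111 in DED1-TS WT, ded1-ts and ded1-ts_hcDBP1, and its mRNA levels 12.7, 8.4 and 10.7. In DED1-CS WT, ded1-cs and ded1-cs_hcDBP1 the footprint levels were 13.5, 12.8 and 12.6. The hcDBP1 strain thus lay between ded1-ts and the control in the heat, and at the level of ded1-cs in the cold. By difference of the deposited changes, hcDBP1 went with CWP1 footprints of 3.95 at 37 °C, of which mRNA made 2.27 and TE 1.68, and with −0.07 at 15 °C.

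Cell wall genes as a list differed in the same direction. Of 35 analysed members, 8 were higher and 2 lower in TE at 37 °C, and 0 higher and 1 lower at 15 °C. Over all genes the shares were 1.28% higher and 0.383% lower at 37 °C, and 2.24% and 0.255% at 15 °C. The TE median of the list was 0.36 at 37 °C and −0.21 at 15 °C, against 0.01 and 0.05 over all genes, and 27 against 12 members were above 0. In the difference, 10 were higher and 0 lower in TE, against 1.2% and 2.24% of all genes. In footprints 12 were higher and 2 lower, against 2.26% and 3.74%. FKS1, the catalytic subunit of glucan synthase, had TE in the authors' deposited table of −2.45 in ded1-cs, −2.32 in ded1-cs_hcDBP1, −2.78 in ded1-ts and −1.37 in ded1-ts_hcDBP1. It stood low in all 4 strains, and hcDBP1 went with 1.42 in the heat and 0.13 in the cold. KRE6, of glucan assembly, SCW10, a wall glucanase, and CHS3, a chitin synthase, were picked after their values were seen. Their TE effects at 37 °C were 1.13, 1.32 and 1.09, and at 15 °C 0.29, 0.24 and 0.73. DAN4, a mannoprotein, went the other way at 37 °C, at −1.10. The Golgi exchange factor SEC7 had TE effects of 1.00 at 37 °C and −0.07 at 15 °C, and the Golgi guanosine diphosphatase GDA1 of 1.36 and 0.63. The list of Golgi and vesicle coat genes differed less, with medians of 0.32 and 0.11 over 21 members.

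Glycolysis and fermentation genes shifted by small amounts in nearly all members. Of 19 members analysed at 37 °C, 18 had a TE effect above 0, with a median of 0.27, and of 18 analysed at 15 °C, 3 did, with a median of −0.20. At either temperature 0 passed 2-fold. Several of these genes have near-identical copies, and without them the median at 15 °C relative to all genes was −0.16 in place of −0.25. Amino acid biosynthesis genes had TE medians of 0.20 and −0.13, and GCN4, their activator, which is translated through upstream reading frames, had 0.75 at 15 °C and −0.30 at 37 °C. GCN4 differed in its starting point, with TE in the authors' deposited table of −2.40 in ded1-cs and −1.65 in ded1-cs_hcDBP1, but 1.43 in ded1-ts and 1.13 in ded1-ts_hcDBP1. In both experiments the hcDBP1 strain was the nearer to its control.

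Genes of iron uptake differed from these lists, with TE medians above 0 at both temperatures and the larger in the cold. On a list of the iron regulon put together after values were seen, 11 of 14 members were analysed, and all 11 had a TE effect above 0 at 15 °C, with a median of 0.78 and 3 higher against 2.24% of all genes. At 37 °C the TE median was 0.34, with 8 above 0. Their mRNA median was 0.08 at 15 °C and −0.35 at 37 °C, so the footprint medians were 1.00 and −0.00, and 6 of 11 were lower in the footprint difference with 0 higher, against 3.74% and 2.26% of all genes. These medians rest on few genes. Relative to all genes the footprint difference was −1.11, but −0.28 without overlapping or copied genes and −0.31 at a level minimum of 200, the footprint effect at 15 °C was 0.94 but 0.60 without such genes or with no minimum, and the TE effect at 37 °C was 0.33 but 0.08 with no minimum. Plasma membrane transporters, a list that also holds FET3, had similar TE medians of 0.17 over 43 members at 15 °C and 0.18 over 42 at 37 °C. At each temperature 1 was higher, against 2.24% of all genes at 15 °C and 1.28% at 37 °C. The copper transporter CTR1, picked after its value was seen, was higher at 15 °C with 1.00 and stood at 0.59 at 37 °C, while the drug pump SNQ2 stood at −0.25 and 1.10. ZRT1, the high-affinity zinc transporter, had mRNA at 0.61 at 15 °C and −0.87 at 37 °C.

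**Figure D4:**
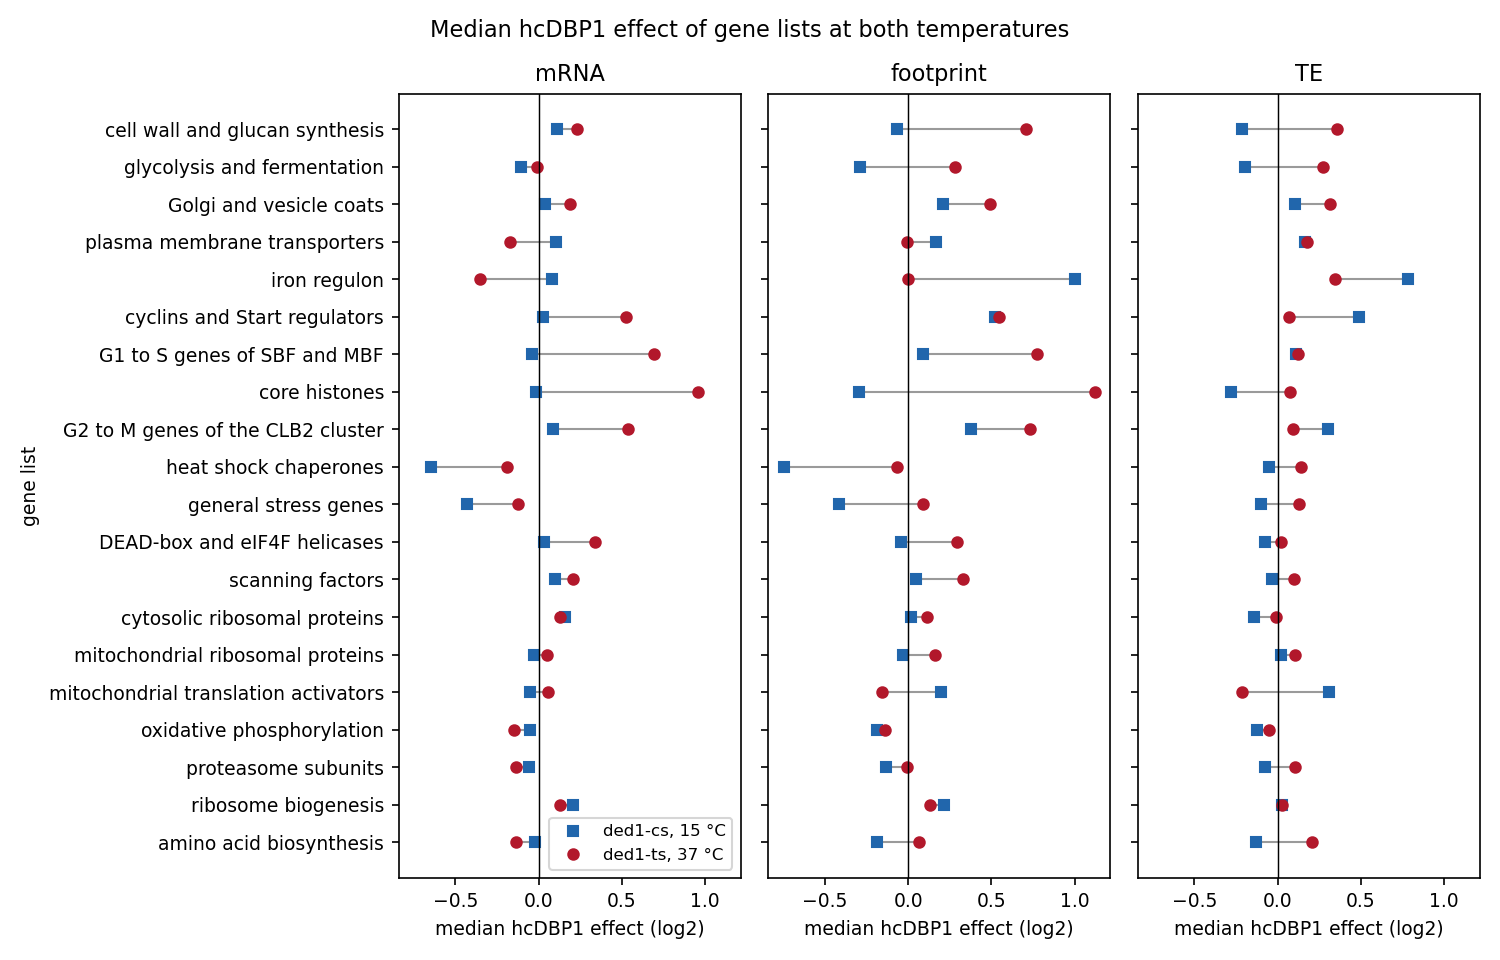
Median hcDBP1 effect (log2) of 20 gene lists in mRNA, footprints and TE, with blue squares for ded1-cs at 15 °C and red circles for ded1-ts at 37 °C. Core histones, G1 to S genes and heat shock chaperones part in mRNA and footprints, and cyclins in mRNA and TE. Cell wall and glycolysis genes part in footprints and TE, and iron genes in every assay, most in footprints. Ribosome biogenesis genes and transporters lie close together in TE.

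In mRNA the effect was wider in the heat. At 37 °C 36 genes were higher (0.689% of all) and 17 lower (0.326%), and at 15 °C 4 were higher (0.0785%) and 15 lower (0.294%). In the difference, 40 genes stood higher (0.786%) and 19 lower (0.374%), and from the level columns without the control 96 and 12. The highest mRNA differences after CWP1 were CLB6, an S phase cyclin, at 1.98, BTN2 at 1.94, PCL1, a G1 cyclin of the Pho85 kinase, at 1.90, and CIP1, an inhibitor of the G1 cyclin kinase, at 1.88. Log2 mRNA levels of PCL1 were 12, 9.6 and 11.2 in DED1-TS WT, ded1-ts and ded1-ts_hcDBP1, and 10.5, 10.8 and 10.4 in the cold series. PCL1 mRNA was thus lowest in ded1-ts, with ded1-ts_hcDBP1 between it and the control, and its hcDBP1 effect was 1.53 at 37 °C and −0.37 at 15 °C. CLB6 was alike in the heat, with mRNA levels of 9.2, 6.9 and 8.7, and at 7.8, 7.3 and 6.9 in the cold.

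The cyclin and Start regulator list, with 18 of 19 members analysed, had an mRNA median of 0.52 at 37 °C, with 18 above 0 and 4 higher, and of 0.03 at 15 °C with 0 higher. Over all genes, 0.689% were higher in mRNA at 37 °C and 0.0785% at 15 °C. The TE medians of the list were the reverse, 0.07 at 37 °C and 0.49 at 15 °C, so the footprint medians of 0.54 and 0.52 were nearly the same. The G1 cyclin genes CLN1 and CLN2, picked after their values were seen, had mRNA of 1.19 and 1.59 at 37 °C and −0.25 and 0.04 at 15 °C, and TE of −0.07 and 0.05 at 37 °C and 0.66 and 0.47 at 15 °C. CLB2, which drives entry into mitosis, had footprints of 1.36 at 37 °C, with mRNA at 0.80, and of 1.30 at 15 °C, with mRNA at 0.31 and TE at 0.99. CLB2 and the list median thus had similar footprint effects at both temperatures, while CLN1 and CLN2 footprints stood at 1.12 and 1.65 in the heat and 0.41 and 0.51 in the cold.

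Lists of cell cycle transcription were also put together after values were seen. The 30 G1 to S genes of the SBF and MBF factors had an mRNA median of 0.69 at 37 °C, with 30 above 0 and 10 higher, and of −0.04 at 15 °C with 0 higher, against 0.689% and 0.0785% of all genes. Their footprint medians were 0.77 and 0.09 and their TE medians 0.12 and 0.11, so here the footprints differed between the temperatures and TE hardly did. The median mRNA change of these genes in ded1-ts was −1.05 in the authors' deposited table, with 16 lower against 3.19% of all genes. That change shares the ded1-ts libraries with the hcDBP1 effect. RNR1, the large subunit of ribonucleotide reductase and also picked after its values were seen, had log2 mRNA levels of 13.5, 11.9 and 13.5 in the heat series and 12.5, 12.2 and 12.2 in the cold series. In the authors' deposited table, RNR1 mRNA against the control was −1.65 in ded1-ts and −0.17 in ded1-ts_hcDBP1. The 8 core histone genes, all with near-identical copies, had mRNA medians of 0.96 and −0.02, with 4 of 8 higher at 37 °C against 0.689% of all genes, and footprint medians of 1.12 and −0.29. The mRNA medians of the 13 analysed genes of the CLB2 cluster were 0.54 and 0.08, and those of the 11 of the M to G1 group were alike, at 0.14 and 0.12. In bulk libraries, more cells in a cell cycle phase and more mRNA per cell cannot be told apart.

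Heat shock chaperone mRNA stood lower with hcDBP1 in the cold. Of 29 members, 8 were lower and 0 higher in mRNA at 15 °C, with a median of −0.65, against 1 lower and a median of −0.19 at 37 °C. Over all genes 0.294% and 0.326% were lower. Footprint medians were −0.75, with 11 lower, and −0.07, with 2 lower. TE medians were −0.06 and 0.14. Relative to all genes the TE medians were −0.10 at 15 °C, 0.13 at 37 °C and 0.27 in the TE difference. The background in footprints was 0.903% of all genes lower at 15 °C and 0.632% at 37 °C. BTN2, a sorting factor for misfolded proteins, had log2 mRNA levels of 8.2, 11.4 and 8.6 in DED1-CS WT, ded1-cs and ded1-cs_hcDBP1, and of 10.5, 11.9 and 11.3 in the heat series. In both experiments the mutant was highest and the hcDBP1 strain in between, nearly at control in the cold. SSA4, an inducible Hsp70, had footprint levels of 9.73, 13.7 and 11.6 in the cold but 12.531, 14.08 and 14.049 in the heat, where the hcDBP1 strain lay near ded1-ts, with a footprint effect of −0.14. SSA4 mRNA was lower with hcDBP1 in both, at −1.45 in the cold and −0.64 in the heat, with TE at −0.57 and 0.50. HSP104, the disaggregase, named after its values were seen, had mRNA at −1.49 in the cold and −0.55 in the heat. Chaperone levels of the controls differed too: the log2 mRNA level of HSP30, a plasma membrane heat shock protein, was 5.7 in DED1-CS WT and 10.8 in DED1-TS WT, on separately scaled tables. HSP30 was lower in mRNA with hcDBP1 at both temperatures, at −1.50 and −1.07, together with ROQ1 at −1.86 and −1.01. These were the 2 genes lower at both, of 15 at 15 °C and 12 at 37 °C. General stress genes followed the chaperones, with mRNA medians of −0.43 and −0.13. NCE103, a carbonic anhydrase, had the footprint levels 13.9, 14.5 and 12.5 in the cold and 10.76, 10.45 and 10.91 in the heat, and so stood below its control with hcDBP1 in the cold and about level with it in the heat.

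The split of footprint effects into mRNA and TE differed between the temperatures. Of the 159 genes with footprints higher at 15 °C, the TE part was the larger in 148 (93.1%), with medians of 1.07 in TE and 0.07 in mRNA. Of the 121 genes higher at 37 °C it was the larger in 66 (54.5%), with medians of 0.81 and 0.56. In the lower direction the TE part was the larger in 20 of 46 genes (43.5%) at 15 °C and in 24 of 33 (72.7%) at 37 °C. These splits use deposited scaling. With equal column totals the footprint effect had 245 genes higher and 30 lower at 15 °C and 85 higher and 98 lower at 37 °C, where the deposited values gave 159 and 46, and 121 and 33. In TE at 37 °C, equal totals gave 43 higher and 28 lower beside 67 and 20. For the footprint difference they gave 56 higher and 520 lower beside 115 and 190, and the level columns without the control gave 218 and 89.

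In TE, translation factor genes stood near the median of all genes, except the elongation and termination factors. Relative to all genes these had −0.19 at 15 °C and 0.28 in the TE difference. In mRNA and footprints the lists stood above all genes at 37 °C. Relative to all genes, mRNA medians there were 0.21 for scanning, 0.34 for helicase and 0.195 for elongation and termination genes. Footprint medians were 0.31, 0.28 and 0.26. The 18 scanning factor genes had TE medians of −0.04 at 15 °C and 0.10 at 37 °C, the 14 DEAD-box and eIF4F helicase genes −0.08 and 0.02, and the 14 elongation and termination factor genes −0.14 and 0.09. Apart from DBP1, 0 genes of these lists passed 2-fold in TE at either temperature. The 136 ribosomal protein genes had TE medians of −0.14 and −0.01, with 0 higher and 0 lower at 15 °C and 1 higher at 37 °C. The 63 mitochondrial ribosomal protein genes had 0.02 and 0.11, with 3 higher at 15 °C, the DBP1 neighbour MRP51 among them. Over all genes, 2.24% were higher and 0.255% lower in TE at 15 °C, and 1.28% were higher at 37 °C.

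The effect in the cold also went with gene length. Median TE at 15 °C was −0.11 for the 572 genes of 300 to 599 nucleotides of coding length, 0.00 for the 1502 genes of 900 to 1499, 0.15 for the 1222 genes of 1500 to 2399 and 0.26 for the 579 genes of 2400 to 3599. At 37 °C the medians of the same classes were −0.03, 0.05, 0.02 and −0.04. Spearman's rho with coding length over 5084 genes was 0.29 for the TE effect at 15 °C and −0.03 at 37 °C, and −0.24 for the difference, each across genes. In ded1-cs and ded1-ts themselves, TE from the authors' deposited table had a rho of −0.39 and −0.49 with length. These changes are subtracted to give the hcDBP1 effects and share the mutant libraries with them, so the length trends are not independent. The reading of one mutant's low genes in the other experiment held at both lengths. Of genes low in ded1-ts, the 63 under 1500 nucleotides had a median effect of 0.51 at 15 °C and the 270 longer ones 0.49, against −0.04 and 0.14 for other genes of the same length. Of genes low in ded1-cs, the 415 shorter ones had 0.20 at 37 °C and the 700 longer ones 0.16, against 0.00 and −0.07.

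**Figure D5:**
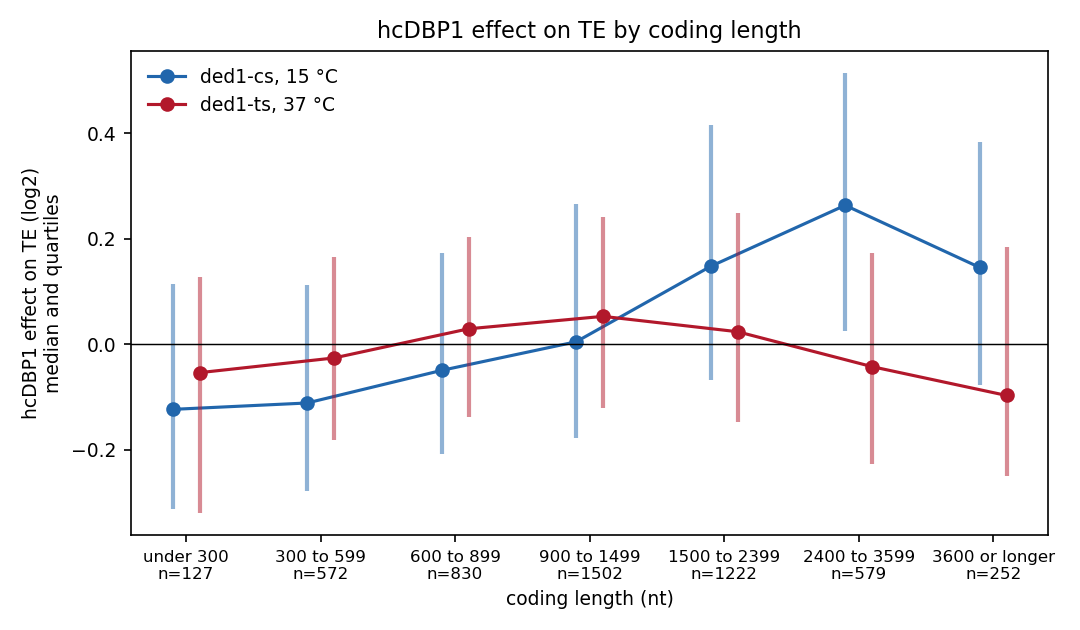
Median (dots) and quartiles (bars) of the hcDBP1 effect on TE (log2) by coding length in nucleotides, in blue for ded1-cs at 15 °C and in red for ded1-ts at 37 °C, with n genes per class. The blue medians go from −0.12 for genes under 300 nucleotides to 0.26 for 2400 to 3599 and are 0.15 for the longest class, while the red medians lie between −0.10 and 0.05.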

How the data were processed

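Per the labels, footprint and mRNA libraries were made from the same strains, and build sacCer2, DESeq2, TopHat2 2.1.0, Bowtie2 2.6.0 and CASAVA 1.8 are listed, without roles, in the submitters' processing notes. The authors deposited log2 levels and log2 changes against the control of each table, with both libraries of a strain pooled. The tables give no base of the logarithm, and the range of the values was read as base 2. The deposited TE equalled the footprint change minus the mRNA change to within 1e-05. The deposited levels are rounded, and subtracting them missed the deposited changes by at most 0.0997, so results use the changes. The control level columns of an experiment differ between its 2 tables by about 0.10, and control levels are quoted from the table of the mutant. In the tables, 14 columns of other strains were not used.

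The hcDBP1 effect is the deposited change of the hcDBP1 strain minus that of the mutant, in which the control cancels, and the difference is 37 °C minus 15 °C. It was computed with python 3.11.15, pandas 2.3.3 and numpy 2.4.6 and drawn with matplotlib 3.10.9. Only the subtraction that gives the effects was tested on simulated data, without a level minimum. With no value per library, no test, SD or p was possible. Of 5445 genes, 5443 were matched to symbols by locus tag in RefSeq annotation of another build, so no positions are given. 327 genes overlap another gene or have near-identical copies, and their reads are uncertain. Coding lengths come from the same annotation.

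Named genes were DED1, DBP1 and its neighbours, PMA1, SFT2, GCN4, CLN3 and PAB1, the ends of each effect and of the difference, genes past 2-fold at both temperatures, and up to 3 members of each list at each end of the difference. Overlapping or copied genes are given by name only at these places. Other genes are said to be picked after their values were seen. The members, the 23 lists and the rules were chosen with earlier results of these data known, and 7 further lists were added after values were seen. Not every named gene or list is printed.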

Additional observations from a re-analysis of the deposited data

Results flagged for a closer look

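SRX1, the sulfiredoxin that restores oxidised peroxiredoxins, moved 2-fold in TE in opposite directions with hcDBP1, by 1.06 at 37 °C and −1.02 at 15 °C. Its mRNA moved the other way, by −1.12 and 0.82, while its footprints stood at −0.06 and −0.21. Its deposited log2 mRNA levels were 5.8, 5.3 and 6 in DED1-CS WT, ded1-cs and ded1-cs_hcDBP1, among the lowest that passed the minimum, and 7.5, 8.8 and 7.8 in the heat series. The footprint levels were 7.11, 8.2 and 7.9 in the cold and 8.155, 8.89 and 8.931 in the heat, so footprints of both hcDBP1 strains stayed close to those of their mutant. The difference between the temperatures was not tested.

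YNL042W-B was the other gene with opposite directions, in TE at −1.08 at 37 °C and 2.29 at 15 °C, and in footprints at −1.33 at 37 °C and 2.20 at 15 °C. It overlaps a noncoding RNA gene in the annotation, so its reads cannot be assigned with certainty. Its log2 footprint levels were 12.93, 15.9 and 18 in DED1-CS WT, ded1-cs and ded1-cs_hcDBP1, and 14.802, 16.96 and 15.73 in the heat series. In both experiments the mutant stood above its control, and the hcDBP1 strain stood above the mutant in the cold and below it in the heat. This difference was not tested either.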

How the results depend on the processing

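No paired analysis was possible because the tables hold 1 pooled value per strain and assay, and for the same reason no library could be left out in turn. Counts as higher and lower, in the order difference, 37 °C, 15 °C, changed by over 1.5 times as follows. At a 1.5-fold threshold footprints gave 471 and 725, 426 and 253, 680 and 202, mRNA gave 174 and 148, 147 and 126, 23 and 55, and TE gave 341 and 592, 317 and 89, 559 and 84. There, 227 genes low in ded1-ts were higher at 15 °C and 215 low in ded1-cs higher at 37 °C. Equal column totals gave 56 and 520 in footprints and 19 and 429 in TE for the difference, 98 footprints lower and 43 TE higher at 37 °C, 245 and 30 footprints and 216 and 2 TE values at 15 °C, and 63 genes low in ded1-ts higher at 15 °C. Level columns without the control gave 218 and 89 footprints and 96 and 12 mRNAs in the difference, 56 and 10 mRNAs at 37 °C and 24 mRNAs lower at 15 °C. A level minimum of 200 left 116 footprints, 10 mRNAs and 62 TE values lower in the difference, 10, 9 and 8 lower at 37 °C, and 29 footprints and 6 TE values lower at 15 °C. Without a minimum these were 297 footprints and 34 mRNAs lower and 93 and 205 in TE for the difference, 97 footprints and 68 TE values lower at 37 °C, and 89 and 54 at 15 °C. A level of 50 in every column, added after the data were seen, left 12 TE values lower at 37 °C. The cause was not tested in any case beyond what each setting does by itself. Median centring, leaving out overlapping or copied genes, and the minimum on the mean of all 8 columns, also added after the data were seen, moved 0 counts by over 1.5 times, and 0 single values that passed 2-fold reversed.

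Relative to all genes, the medians of genes low in ded1-ts lay between 0.39 and 0.46 at 15 °C under the alternatives, and of genes low in ded1-cs between 0.10 and 0.17 at 37 °C. List medians relative to all genes kept their sign for cell wall, chaperone and cell cycle mRNA at 37 °C, and changed it under 1 or more alternatives only where they lay within 0.1 of that of all genes. No value here rests on a spread between libraries, and depth is unknown.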

Other observations

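Markers that tell the strains apart also differed with hcDBP1. LEU2, an enzyme gene of leucine synthesis often used as a plasmid marker, had log2 mRNA levels of 15.3, 14.8 and 14.1 in DED1-CS WT, ded1-cs and ded1-cs_hcDBP1, and of 18.2, 17.3 and 18.5 in the heat series. Its mRNA was thus lowest with hcDBP1 in the cold, by −0.67 against ded1-cs, and highest with hcDBP1 in the heat, by 1.01 against ded1-ts. HIS3, of histidine synthesis, had 17.7, 17 and 17.5 in the cold and 15.8, 15.6 and 15.2 in the heat, with effects of 0.64 and −0.52. The labels do not say which plasmids the strains carried.

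The receptor gene STE2 of a cells had log2 mRNA levels between 13.1 and 13.6 in all 6 strains, and the receptor gene STE3 of alpha cells levels between 4.9 and 9.1, higher in the heat experiment. With hcDBP1, 7 analysed a cell markers had TE medians of −0.27 at 15 °C and 0.10 at 37 °C. Subunits of the proteasome had −0.07 and 0.10, genes of the ER 0.19 and −0.07, and genes of mRNA decay 0.09 and −0.01.

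At the lowest TE effects in the heat after DBP1 stood COX3, which the mitochondrial genome encodes, at −1.53, YOR192C-C at −1.47, FLO11 at −1.46, and the meiotic genes IME2, ADY3 and RED1 at −1.36, −1.35 and −1.29. Mean footprint levels of IME2, ADY3 and RED1 in the heat were only 52.9, 70.3 and 62.4, just over the minimum of 50. In the cold they were 19.6, 15.6 and 44.6, below the minimum. At 15 °C the lowest were SDH9 at −1.25, SNG1 at −1.20 and JLP1, a sulfonate dioxygenase, at −1.13. SDH9 and JLP1 also had low mean footprint levels there, at 61.8 and 65.9.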
